A study of Mus musculus with 8 samples.

Results

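The genes described here are 10 immediate early genes, taken by symbol from the 8 deposited expression tables: the AP-1 genes Jun, Junb, Jund, Fos, Fosb, Fosl2 and Atf3 and the Ier genes Ier2, Ier3 and Ier5. They are 10 of the 55359 genes the tables list, and all 10 were found. RNA sequencing was done on total RNA of sorted mouse thymocytes, taken from the thymus at 5 weeks of age, that express CD4 and CD8 together (double positive, or DP) and have absent to intermediate surface TCR beta. The 4 Lck-cre samples (replicates 5 to 8) had the genotype LSL-Sting1-N153S;Lck-cre, in which Cre driven by the Lck promoter, active in T cell progenitors, removes a stop cassette and allows STING with the gain-of-function substitution N153S to be expressed. The 4 control samples (replicates 1 to 4) were LSL-Sting1-N153S/+ and carried no Cre, so both groups hold the conditional allele but the controls lack Cre itself as well as the activated allele, and effects of these cannot be told apart. Lck-cre replicate 5 and control replicate 1 were female and the other 3 of each group male. The labels do not say that the samples are separate animals, so p-values measure only the spread between these samples, which may be technical.

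AP-1 is a family of dimeric transcription factors built from Jun proteins (c-Jun, JunB, JunD), which pair with each other or with Fos proteins (c-Fos, FosB, Fra-2) or ATF proteins, through a leucine zipper. Immediate early genes are transcribed within minutes of a signal without new protein synthesis, through factors already bound to or activated at their promoters, and their mRNAs are usually short-lived. In thymocytes these genes respond to signals from the T cell receptor and to stress, including the handling of tissue. The Ier genes are named for the same immediate early response. Ier2 and Ier5 are related nuclear proteins, and Ier3 is a small membrane-associated protein, unrelated to them in sequence, that is known as a target of NF-kB and p53.

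Promoters of 4 of the genes that rose are shown because Jun and Fos are known to be driven in part by CRE and related elements, which ATF, CREB and AP-1 proteins bind, while the Ier3 promoter holds none of these letters. Each is the 250 bases before the gene's start, read 5′ to 3′ on the gene's strand, from RefSeq on build GRCm38.p6, whose table gave promoters for 9 of the 10 genes (all but Ier2). Capitals mark TGACG, the core of the CRE, TGACNTCA, a CRE-type site, or TGANTCA, the AP-1 site, searched on both strands. The Jun promoter is chr4:95052223-95052472 on the minus strand, that of Fos chr12:85473640-85473889 on the plus strand, that of Junb chr8:84978749-84978998 on the minus strand, and that of Ier3 chr17:35821463-35821712 on the plus strand.
Jun: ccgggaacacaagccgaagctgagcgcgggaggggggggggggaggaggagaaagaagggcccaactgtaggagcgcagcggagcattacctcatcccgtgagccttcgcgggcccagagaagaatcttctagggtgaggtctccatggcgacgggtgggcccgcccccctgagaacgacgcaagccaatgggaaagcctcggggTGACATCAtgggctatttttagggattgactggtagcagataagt
Fos: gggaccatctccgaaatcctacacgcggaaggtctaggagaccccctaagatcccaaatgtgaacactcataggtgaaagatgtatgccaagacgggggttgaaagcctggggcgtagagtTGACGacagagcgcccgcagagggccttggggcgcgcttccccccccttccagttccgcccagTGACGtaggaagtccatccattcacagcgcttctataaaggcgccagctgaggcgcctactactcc
Junb: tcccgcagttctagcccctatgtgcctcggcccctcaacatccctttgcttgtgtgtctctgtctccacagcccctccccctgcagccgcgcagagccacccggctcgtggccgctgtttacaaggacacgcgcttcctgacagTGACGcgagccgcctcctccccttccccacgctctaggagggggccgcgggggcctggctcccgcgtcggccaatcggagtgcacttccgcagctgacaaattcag
Ier3: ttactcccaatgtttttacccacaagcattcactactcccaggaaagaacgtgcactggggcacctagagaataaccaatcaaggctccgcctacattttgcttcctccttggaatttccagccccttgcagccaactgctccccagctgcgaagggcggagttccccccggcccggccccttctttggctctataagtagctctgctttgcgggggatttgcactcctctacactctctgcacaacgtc

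In Jun the letters TGACATCA began at position -45, counted from the gene's start. In Fos the core TGACG began at -129 and at -66, upstream of a TATAAA at -33. In Junb 1 core began at -106. Fosb, whose promoter is not shown, had 1 core at -60, and Atf3, also not shown, had 1 on the opposite strand at -7. The promoters of Ier3 and Ier5 held none of these letters. CCAAT was found once in Jun, at -65, once in Junb, at -36, and in 2 copies each in Ier3 and, on the opposite strand, Ier5. Of 32851 promoters of the same length, 17.8% held TGACG, 7.49% TGACNTCA, 6.75% TGANTCA and 33.9% CCAAT on either strand. The patterns overlap, since TGACGTCA, found in 1.55%, counts as both TGACG and TGACNTCA. A 10-letter kappa B pattern, the kind NF-kB binds, matched once on the opposite strand in Ier3, starting at -92, once in Fos, and also in Fosb and Fosl2, and 7.25% of all promoters held it. A match describes letters and does not show a bound site. The RefSeq start of Junb lay at -30 relative to the GENCODE start of its transcript, and that of Ier3 at 29. That of Fosl2 lay at 671, so its window falls after its GENCODE start. That of Jund lay at -1210, so the letters before the start of Jund are not described.

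In FPKM, a level scaled by the length of the gene and the size of the library, 6 of the 10 genes rose in Lck-cre samples and 0 fell (limma, Benjamini-Hochberg adjusted p under 0.05 over 12337 tested genes). Jun, Ier3, Junb, Fos, Ier2 and Ier5 rose, and every Lck-cre sample lay above every control sample for each of these 6. Of all tested genes 25.8% were called, 15.4% as higher and 10.4% as lower, and in 17.1% all Lck-cre samples lay above all controls, while in 12.3% all lay below. In TPM the same 6-gene count stood beside 27.3% of all genes called, 10.5% as higher and 16.8% as lower, and with no filter 4 of the 10 rose, beside 2.41% of 28851 genes. Jund and Fosb did not pass, and Fosl2 and Atf3 were below the filter, which asked for 1 FPKM or more in 4 or more samples, and were not tested. Ier3 met that filter through the Lck-cre samples alone, so its lack of overlap follows from how it entered the test and is no separate support. Over the 8 genes that were tested, Ier3 among them, the median log2 change was 0.90, beside 0.01 over all tested genes. Without control replicate 1 or without Lck-cre replicate 5, when 427 and 419 of all genes rose, 5 of the 10 did so, and without control replicate 4, with 1311 of all genes, 7 did. In sorted bulk samples, a shift in the mix of cells and a change in RNA per cell cannot be told apart.

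**Figure D1:**
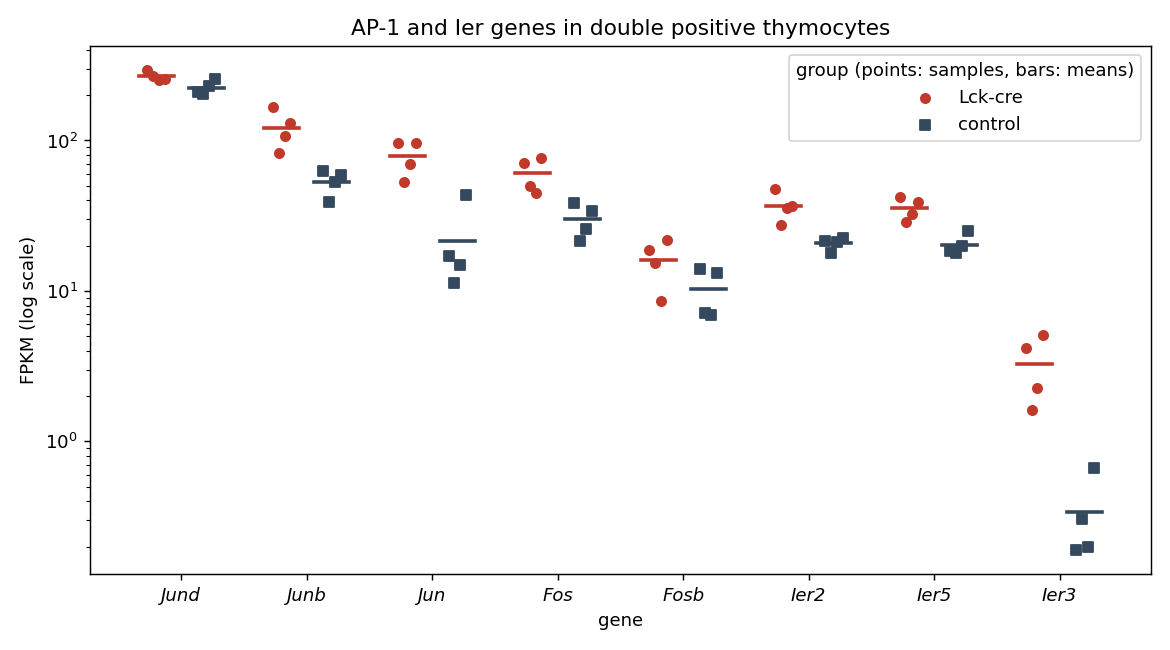
FPKM (log axis) of the 8 tested genes in each of the 4 Lck-cre samples (circles) and 4 control samples (squares), with bars at the group means. The groups are apart for Junb, Jun, Fos, Ier2, Ier5 and Ier3 and overlap for Jund and Fosb.

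Sting1 and DP markers were checked against the labels. Sting1, the gene of the conditional allele, lay at 221, 85.4, 130 and 232 FPKM in Lck-cre replicates 5 to 8, against 15.3, 11.6, 13.4 and 11.9 FPKM in control replicates 1 to 4. All 9 DP thymocyte markers were at 1 FPKM or more in every sample, with a summed level of 4294 to 5552 FPKM in Lck-cre samples and 5518 to 6020 FPKM in controls. The sum of all FPKM was 437778 to 457145 in Lck-cre samples and 413835 to 437426 in controls. The tables hold no read counts, so depth is unknown, but per-base coverage divided by FPKM, a proxy for it, was 7.65 to 7.86 in Lck-cre samples and 7.53 to 7.89 in controls.

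The Jun genes encode the partners that any AP-1 dimer with Fos needs. Jun, the gene of c-Jun, is listed as ENSMUSG00000052684.5 (chromosome 4, minus strand, 94937271 to 94940459), with positions as the files list them, which name no build. Its level was 96.3, 52.7, 69.9 and 95.6 FPKM in Lck-cre replicates 5 to 8, against 17.0, 11.4, 14.8 and 43.2 FPKM in control replicates 1 to 4. The lowest Lck-cre sample was above the highest control, replicate 4, which stood well above the other 3 controls. The means were 78.6 ± 21.2 FPKM in Lck-cre samples and 21.6 ± 14.6 FPKM in controls (SD, n = 4 each), a 3.64-fold difference. The log2 change was 1.99 (95% confidence interval 1.15 to 2.83, adjusted p = 0.0102). The call of Jun ended with no filter (adjusted p = 0.0566) and in males only (0.0510), as it did without control replicate 1 (0.0510) or Lck-cre replicate 5 (0.0514).

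Junb, which encodes a Jun protein with weaker transactivation than c-Jun at many sites, is listed as ENSMUSG00000052837.8 (chromosome 8, minus strand, 85701113 to 85705347). It lay at 166, 82.3, 107 and 131 FPKM in Lck-cre replicates 5 to 8, and at 62.5, 39.1, 52.7 and 59.3 FPKM in control replicates 1 to 4. The lowest Lck-cre sample, replicate 6, was above all 4 controls. The change amounted to 2.28-fold between means, and its log2 value was 1.16 (95% confidence interval 0.78 to 1.53, adjusted p = 0.00750). It passed under each of the 19 alternative settings, with log2 changes of 1.05 to 1.29. In control replicate 3 the table splits Junb into 2 entries, 1 at 0 FPKM and 1 from 85703539 to 85705347 at 52.7 FPKM, which were summed.

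Jund, whose mRNA is known to be made more steadily than those of the other Jun genes, is listed as ENSMUSG00000071076.9 (chromosome 8, plus strand, 71151599 to 71153265). It had the highest level of the 10 genes in every sample, at 294, 269, 251 and 255 FPKM in Lck-cre replicates 5 to 8 and 210, 204, 229 and 256 FPKM in control replicates 1 to 4. Control replicate 4 lay above Lck-cre replicates 7 and 8, so the groups overlapped. The log2 change of 0.25 (95% confidence interval 0.05 to 0.46) did not pass after adjustment (p = 0.0690), and the exact permutation test of the means over 70 assignments gave p = 0.0857 (n = 4 each). Without control replicate 4 Jund was called, with a log2 change of 0.32 and an adjusted p of 0.0395.

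As shares of the summed FPKM of Jun, Junb and Jund, the 3 genes are set side by side with no test. Jund held 52.8% to 66.6% of the sum in Lck-cre samples and 71.4% to 80.2% in controls. Jun held 13.0% to 19.9% in Lck-cre samples and 4.46% to 12.05% in controls. For both genes the groups did not overlap, while the shares of Junb did, at 20.4% to 29.9% in Lck-cre samples and 15.4% to 21.6% in controls. The sum itself was 468 ± 67.9 FPKM in Lck-cre samples and 300 ± 43.3 FPKM in controls (SD, n = 4 each). The lowest Lck-cre sum, 404.1 FPKM in replicate 6, was above the highest control sum, 359 FPKM in replicate 4.

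**Figure D2:**
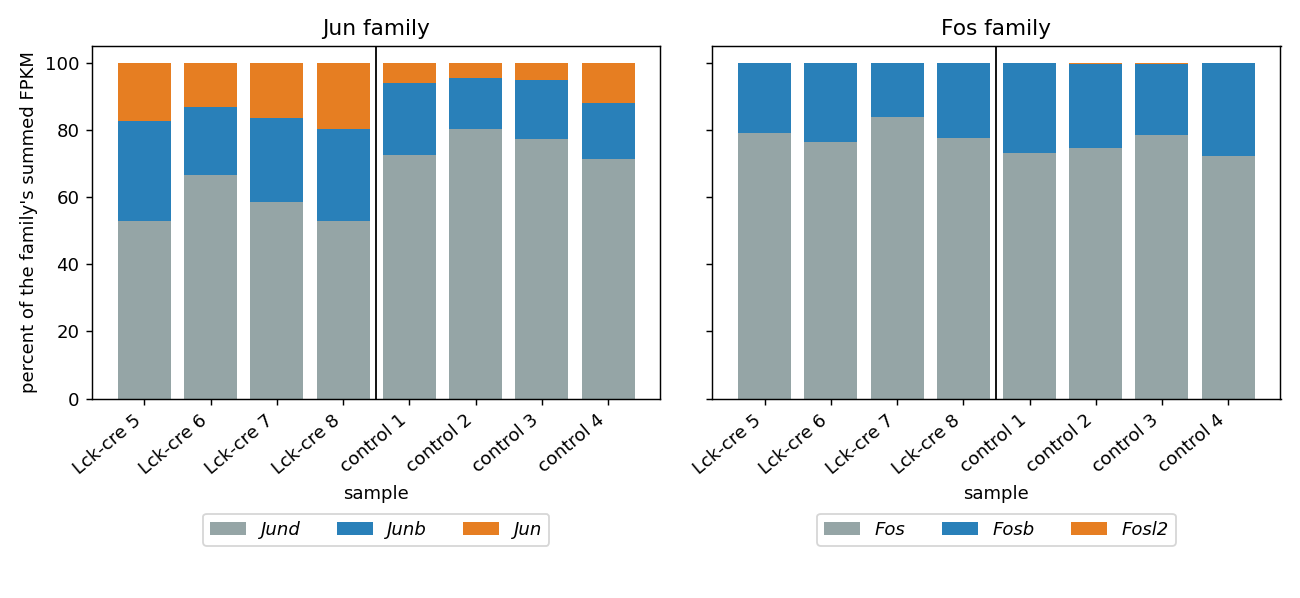
Percent of the summed FPKM of the Jun genes (left) and Fos genes (right) in each sample, Lck-cre left of control. Jund makes up 52.8% to 66.6% of Jun transcripts in Lck-cre samples and 71.4% to 80.2% in controls, and Fosl2 is too low to be seen.

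The Fos genes encode partners that bind DNA as AP-1 once paired with a Jun protein. Fos, the gene of c-Fos, is listed as ENSMUSG00000021250.14 (chromosome 12, plus strand, 85520664 to 85524047). Its level was 71.3, 50.04, 44.8 and 76.0 FPKM in Lck-cre replicates 5 to 8, against 38.2, 21.3, 25.6 and 34.2 FPKM in control replicates 1 to 4. All Lck-cre samples were above all controls, with replicates 5 and 8 the highest. The means differed 2.03-fold, at 60.6 ± 15.4 FPKM in Lck-cre samples and 29.9 ± 7.74 FPKM in controls (SD, n = 4 each). The log2 change was 1.01 (95% confidence interval 0.60 to 1.42, adjusted p = 0.00947), and the call ended with no filter (adjusted p = 0.0521).

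Fosb, whose protein can stand in for c-Fos in the dimer, is listed as ENSMUSG00000003545.4 (chromosome 7, minus strand, 19036621 to 19043976). It lay at 18.6, 15.3, 8.60 and 21.7 FPKM in Lck-cre replicates 5 to 8 and at 13.9, 7.12, 6.88 and 13.2 FPKM in control replicates 1 to 4. Lck-cre replicate 7 was below control replicates 1 and 4, so the groups overlapped. The log2 change of 0.62 had a 95% confidence interval of -0.01 to 1.25 and did not pass (adjusted p = 0.128), and the exact permutation test of the means gave p = 0.114. Within the summed FPKM of Fos, Fosb and Fosl2, Fos held 76.5% to 83.8% in Lck-cre samples and 72.1% to 78.6% in controls, ranges that overlap.

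Fosl2, the gene of Fra-2, was at 0.0655 to 0.167 FPKM in Lck-cre samples and 0.0982 to 0.141 FPKM in controls, with group means of 0.114 FPKM in both (chromosome 5, plus strand, 32293145 to 32315186). Atf3, a stress-induced ATF protein that pairs with Jun proteins, was listed at 0.0129 FPKM in Lck-cre replicate 6 and at 0 in the other 3 Lck-cre samples and in all 4 controls (chromosome 1, minus strand, 190902493 to 190950236). Thus these 2 AP-1 genes were at or near 0 in all samples, and for each the exact permutation p was 1.

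All 3 Ier genes rose. Ier2 (ENSMUSG00000053560.6, chromosome 8, minus strand, 85387960 to 85389483) had 47.9, 27.6, 35.5 and 36.6 FPKM in Lck-cre replicates 5 to 8, against 21.3, 17.7, 21.1 and 22.6 FPKM in control replicates 1 to 4. The 4 controls lay close together and below all Lck-cre samples. The means differed 1.78-fold, with a log2 change of 0.80 (95% confidence interval 0.51 to 1.08, adjusted p = 0.00750).

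Ier5 (ENSMUSG00000056708.6, chromosome 1, minus strand, 154972107 to 154975382), known as a target of the heat shock factor HSF1, had 42.0, 28.5, 32.6 and 38.8 FPKM in Lck-cre replicates 5 to 8 and 18.3, 17.8, 19.8 and 24.996 FPKM in control replicates 1 to 4. Control replicate 4 was the highest control and was below all Lck-cre samples. The difference between means was 1.75-fold, with a log2 change of 0.79 (95% confidence interval 0.48 to 1.11, adjusted p = 0.00932).

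Ier3 (ENSMUSG00000003541.7, chromosome 17, plus strand, 36132576 to 36133815) was the lowest of the genes that rose and had the highest fold. Its level was 4.16, 1.61, 2.27 and 5.10 FPKM in Lck-cre replicates 5 to 8, against 0.189, 0.307, 0.197 and 0.667 FPKM in control replicates 1 to 4. No control reached 1 FPKM, and every Lck-cre sample did, so Ier3 was tested only through the group where it was high. The means of 3.28 ± 1.62 FPKM in Lck-cre samples and 0.340 ± 0.224 FPKM in controls (SD, n = 4 each) differed 9.66-fold. The log2 change of 2.10 (95% confidence interval 1.39 to 2.81, adjusted p = 0.00750) is on the log2(FPKM + 0.5) scale, which understates the change of low genes, and it ran from 1.61 to 2.93 over the alternatives, all of which kept the call. For each of the 6 genes that rose, exact permutation of mean FPKM reached p = 0.0286, the lowest possible value with 4 samples a group. For Ier3 that value was fixed by the way it met the filter.

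**Figure D3:**
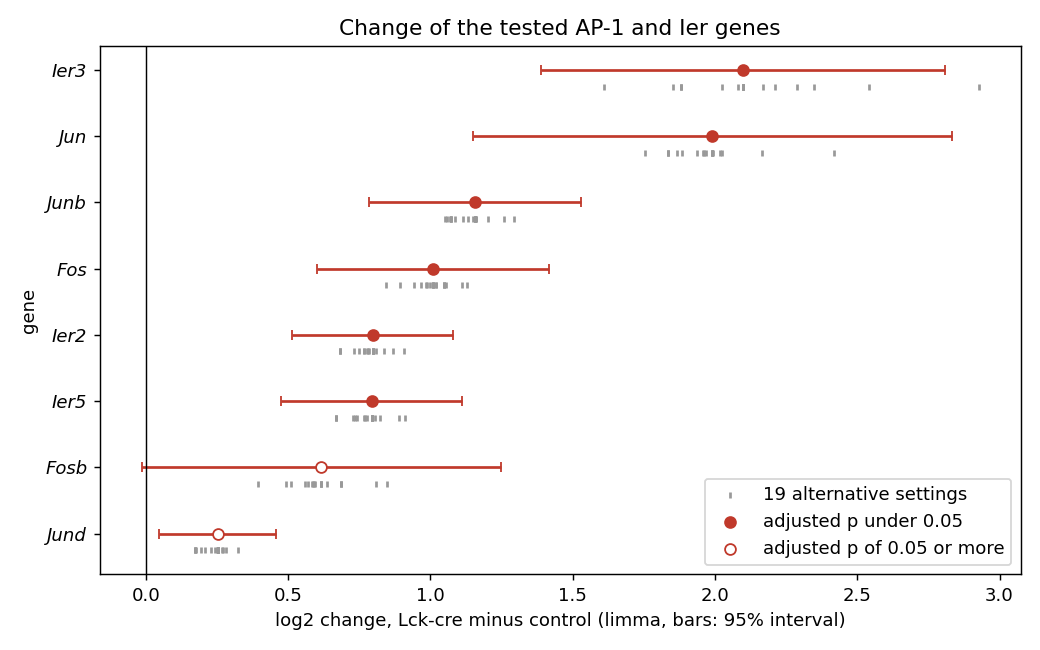
Change in log2(FPKM + 0.5), Lck-cre minus control, of the 8 tested genes from limma with 95% confidence intervals, and the same value under each of 19 alternative settings (grey ticks). Filled points are genes with an adjusted p under 0.05, and the values for Jund and Fosb, 0.25 and 0.62, did not pass.

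Since FPKM is scaled by length, levels can be set side by side between genes. In Lck-cre samples the order of mean FPKM was Jund, Junb, Jun, Fos, Ier2, Ier5, Fosb, Ier3, Fosl2 and Atf3. The sample ranges of neighbours overlapped from Junb down to Ier5, while Fosb reached 21.7 FPKM at most, below the lowest Ier5 value of 28.5 FPKM. In controls Jun stood below Fos, with means of 21.6 FPKM for Jun and 29.9 FPKM for Fos, and their ranges overlapped, as did those of Jun, Ier2 and Ier5. Fosb was lower than Ier5 in all controls, at 13.9 FPKM at most for Fosb and 17.8 FPKM at least for Ier5.

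Several of the genes that rose shared an order among the Lck-cre samples. For Jun, Junb, Ier2 and Ier5 the order from high to low was replicate 5, 8, 7 and 6, and for Ier3 it was 8, 5, 7 and 6, the order Sting1 also had. Fos and Fosb shared another order, 8, 5, 6 and 7. Among the controls replicate 2 was the lowest for Jun, Junb, Jund, Fos, Ier2 and Ier5, and replicate 4 the highest for Jun, Jund, Ier2, Ier3 and Ier5. These orders describe 4 samples a group, in which all genes of a sample share its library and sort, and no test was made.

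**Figure D4:**
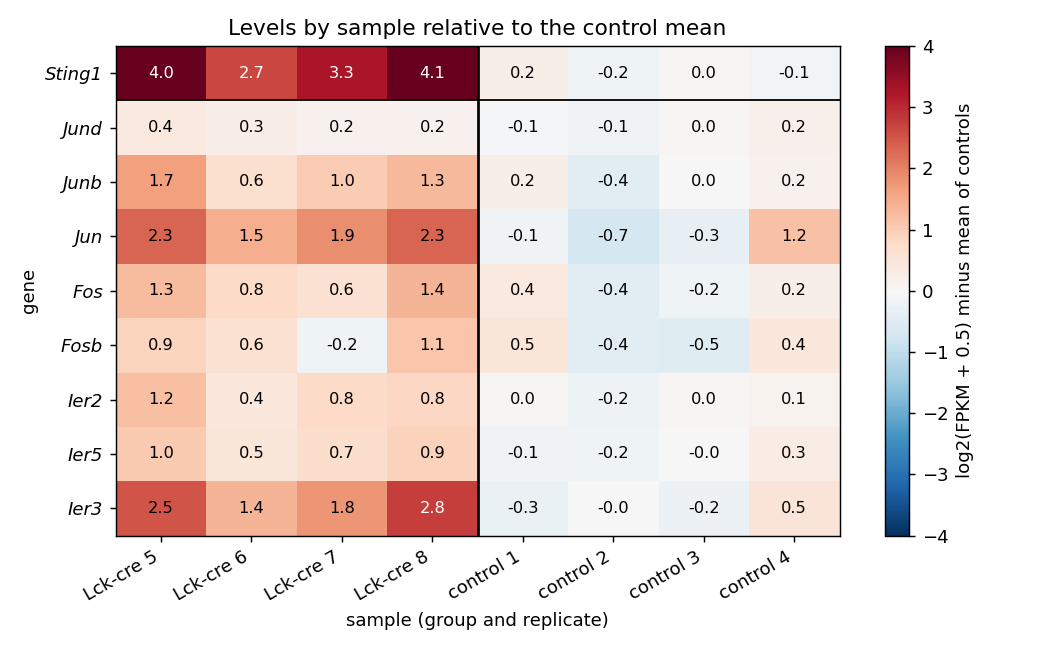
Colour gives log2(FPKM + 0.5) of each sample minus the mean of the 4 controls, for Sting1 and the 8 tested genes, with Lck-cre samples left of control samples. Lck-cre replicates 5 and 8 are the most raised for Sting1, Jun, Junb, Fos and Ier3, and control replicate 4 is 1.2 above the control mean for Jun.

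The nearest profiles over the 8 samples were found by the root mean square difference of centred and scaled log2(FPKM + 0.5), as a description in which the group difference takes a large share. For Junb the nearest genes outside the 10 were Nol6 (0.166), Lactb (0.170) and Gadd45b (0.180), and Ier2 was nearer than any of these, at 0.153. For Ier2 they were Lactb (0.152), Psmb10 (0.193) and Qtrt1 (0.209). For Jun they were Epop (0.169), Nip7 (0.175) and Irf8 (0.187), with Ier5 the nearest of the 10 at 0.221. For Fos they were Snhg1 (0.198), Mir6973a (0.221) and Acad11 (0.225), with Junb the nearest of the 10 at 0.312. Jund and Fosb were the farthest from the rest, Jund at 0.475 to 0.875 and Fosb at 0.496 to 0.875 from the other 7 tested genes.

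Most of the genes that rose have simple gene structures. In the GENCODE vM21 annotation the coding transcripts of Jun, Junb, Jund, Ier2 and Ier5 have 1 exon, that of Ier3 has 2, and those of Fos, Fosb, Fosl2 and Atf3 have 4. A single exon was present in 2.68% of the tested protein-coding genes matched to that annotation. Of the other 263 such single-exon genes, 16.0% rose, beside 16.2% of genes with several exons. AU-rich elements in the 3′ UTR, which speed mRNA decay, were counted as ATTTA: Ier3 had 5, Fos and Jun 4 each, Atf3 3, Junb and Ier5 2 each, Jund and Fosb 1 each, Fosl2 8 and Ier2 0, and 61.6% of 20653 genes with a 3′ UTR had at least 1. The longer nonamer TTATTTATT, held by 6.91% of genes, was found in Fos and Fosl2, and the site in Fos, at bases 655 to 663 of a 3′ UTR of 815 bases, is shown with its flanks and the nonamer in capitals.
Fos 3′ UTR site: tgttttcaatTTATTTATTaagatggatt
Of the other 679 tested genes with the nonamer, 11.9% rose, beside 16.6% of those without it, a difference that was not tested.

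Of 37 other immediate early genes, 34 were tested, 9 rose and 6 fell, where 15.4% of all tested genes rose and 10.4% fell, and the median log2 change was 0.10, beside 0.01 over all tested genes. Gadd45b, a stress-induced protein that binds MAP kinase kinases, lay at 23.3, 10.7, 12.6 and 24.0 FPKM in Lck-cre replicates 5 to 8, against 6.25, 3.61, 5.61 and 6.48 FPKM in control replicates 1 to 4, and all Lck-cre samples were above all controls (log2 change 1.54, adjusted p = 0.00794). Nfkbia, the NF-kB inhibitor that NF-kB itself induces, lay at 321, 205, 226 and 325 FPKM in Lck-cre replicates 5 to 8, and at 120, 115, 126 and 159 FPKM in control replicates 1 to 4, also without overlap (log2 change 1.03, adjusted p = 0.00794). Named after their values were seen, the others that rose were Zfp36 and Zfp36l2, which bind AU-rich elements, the MAP kinase phosphatases Dusp1 and Dusp2, Myc, Ppp1r15a and Klf2. Rhob and Ier5l, a relative of Ier5, were below the filter at mean levels of 0.372 and 0.394 FPKM in Lck-cre samples and 0.0873 and 0.0971 FPKM in controls, and Ccn1 was listed at 0 in every sample.

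Egr1, a transcription factor induced by T cell receptor signals, fell to 12.5, 17.1, 12.4 and 8.20 FPKM in Lck-cre replicates 5 to 8, against 27.9, 23.5, 21.8 and 21.0 FPKM in control replicates 1 to 4, without overlap (log2 change -0.92, 95% confidence interval -1.33 to -0.50, adjusted p = 0.0119). Egr3 averaged 0.586 FPKM in Lck-cre samples and 1.46 FPKM in controls (log2 change -0.87, adjusted p = 0.0147), and it met the filter through the controls alone, with 0 Lck-cre samples at 1 FPKM. Egr2, Nr4a3, Btg2 and Dusp6 also fell, and are named after their values were seen. The ratio of Junb to Egr1 was 13.4, 4.82, 8.61 and 16.0 in Lck-cre replicates 5 to 8. In control replicates 1 to 4 the ratio was 2.24, 1.66, 2.42 and 2.82. Neither gene overlapped between groups and they moved in opposite directions, so the ratio could not overlap and is no separate result. The calls of Egr1 and Egr3 ended with no filter (adjusted p of 0.0607 and 0.0641), in males only (0.0556 and 0.0683), without control replicate 1 (0.0556 and 0.0695) and without Lck-cre replicate 5 (0.0556 and 0.0674). Of the same 37 genes, 3 rose and 0 fell without control replicate 1 or Lck-cre replicate 5, 5 rose and 2 fell without control replicate 2, 14 rose and 4 fell without control replicate 4, 10 rose and 9 fell without Lck-cre replicate 6, and 9 rose and 3 fell without Lck-cre replicate 7, while in TPM 9 rose and 10 fell.

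**Figure D5:**
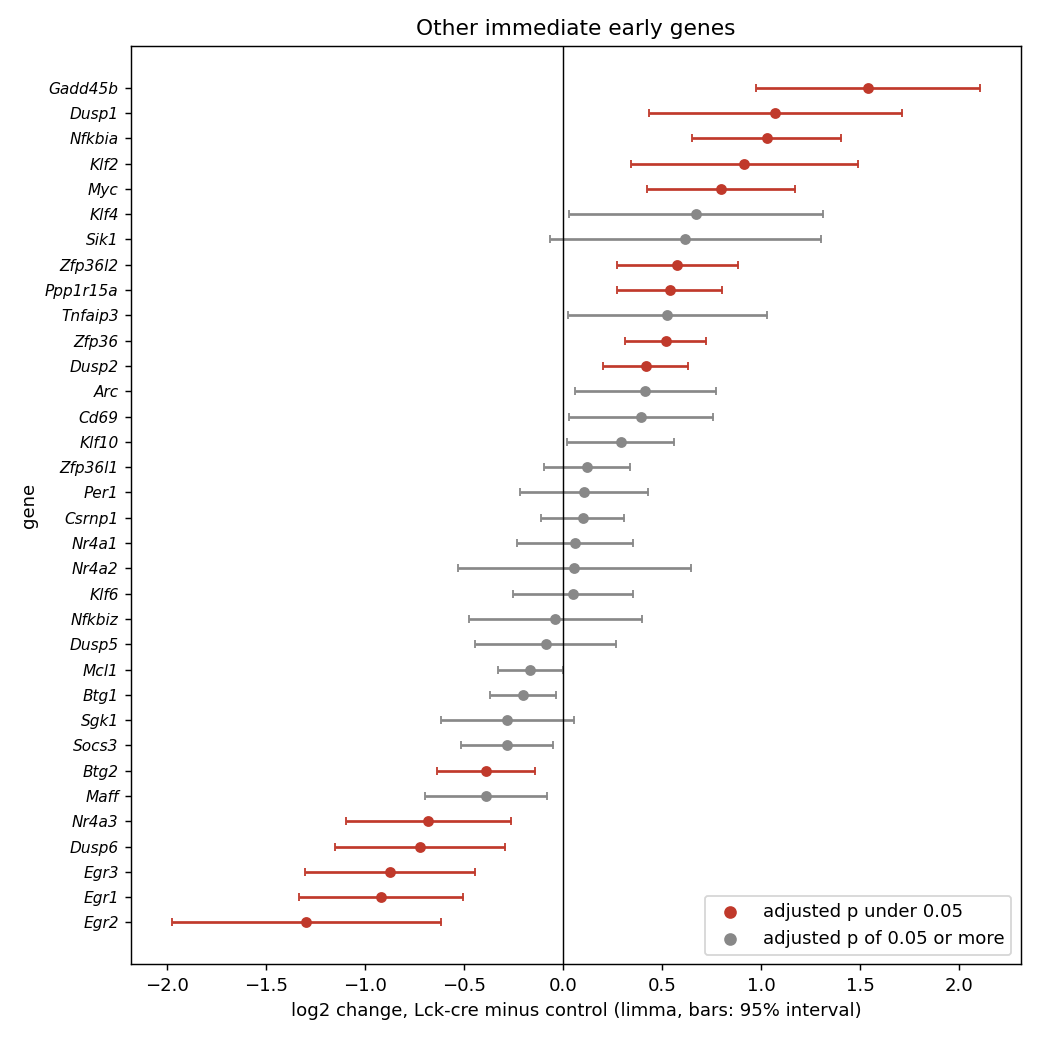
Change in log2(FPKM + 0.5), Lck-cre minus control, of 34 tested immediate early genes outside the 10, with 95% confidence intervals from limma. Red points have an adjusted p under 0.05: 9 lie above 0, led by Gadd45b at 1.54, and 6 below it, among them Egr1 at -0.92 and Egr3 at -0.87.

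Of 15 other genes whose proteins can pair with Jun or Fos proteins, 11 were tested, 2 rose, 2 fell and 7 did not pass, where 15.4% of all tested genes rose and 10.4% fell, and the median log2 change was -0.02. Batf, which pairs with Jun proteins in lymphocytes, averaged 6.14 FPKM in Lck-cre samples and 4.10 FPKM in controls (log2 change 0.51, adjusted p = 0.0209), and Jdp2, a repressive partner of Jun proteins, averaged 1.22 FPKM in Lck-cre samples and 0.808 FPKM in controls (log2 change 0.40, adjusted p = 0.0391). Atf7 averaged 12.4 FPKM in Lck-cre samples and 17.5 FPKM in controls (log2 change -0.48, adjusted p = 0.0109). Atf7 was called with any single sample left out. The call of Batf ended when control replicate 1 or 2, or Lck-cre replicate 5 or 7, was removed (highest adjusted p 0.0934). That of Jdp2 ended on removal of any sample but control replicate 3 (highest adjusted p 0.112) and in TPM (0.0515).

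Of 19 kinases and RAS proteins upstream of AP-1, all tested, 1 rose and 2 fell, with a median log2 change of -0.03. Of all tested genes 15.4% rose and 10.4% fell. Map2k3, which activates p38, averaged 30.7 FPKM in Lck-cre samples and 26.3 FPKM in controls (log2 change 0.22, adjusted p = 0.0229). Map3k1, upstream of JNK, averaged 20.1 FPKM in Lck-cre samples and 24.9 FPKM in controls (log2 change -0.30, adjusted p = 0.0172), and Nras 31.6 FPKM in Lck-cre samples and 37.2 FPKM in controls (log2 change -0.23, adjusted p = 0.0493). The call of Map2k3 ended in TPM (adjusted p = 0.0888) and when control replicate 1 or 2, or Lck-cre replicate 5 or 7, was removed (highest adjusted p 0.0939), that of Map3k1 without control replicate 2 (0.0562) or Lck-cre replicate 5, and that of Nras on removal of any sample but control replicate 4 and Lck-cre replicate 6 (highest adjusted p 0.196). In TPM 0 rose and 5 fell, beside 1300 and 2067 of all tested genes. Without control replicate 3, 3 rose and 1 fell, beside 1895 and 1114. Without Lck-cre replicate 6, 1 rose and 3 fell, beside 2215 and 1674. These are mRNA levels and carry no measure of kinase activity.

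Of 16 transcription factors known to act at immediate early promoters, 15 were tested, 0 rose and 4 fell, with a median log2 change of -0.20. The shares over all tested genes were 15.4% for a rise and 10.4% for a fall. Mef2d averaged 109 FPKM in Lck-cre samples and 136 FPKM in controls (log2 change -0.32, adjusted p = 0.0202), and Elk4, a partner of the serum response factor, 56.7 FPKM in Lck-cre samples and 70.9 FPKM in controls (log2 change -0.32, adjusted p = 0.0217). Elk3 and the CREB coactivator Crtc2, named after their values were seen, were the others that fell. The number that fell was 8 in TPM, where 2067 of all tested genes fell, against 1279 in the main fit. It was 0 without control replicate 2 or Lck-cre replicate 7, beside 405 and 675 of all tested genes. It was 1 without control replicate 1 or Lck-cre replicate 5, beside 226 and 228. Without control replicate 4 or Lck-cre replicate 8 it was 2, beside 800 and 774. The call of Mef2d ended on removal of control replicate 1 or 2, or Lck-cre replicate 5 or 7 (highest adjusted p 0.0810), and that of Elk4 on removal of control replicate 2 or 4, or Lck-cre replicate 7 (highest adjusted p 0.0678).

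Of 12 genes for the turnover and modification of AP-1 proteins, all tested, 0 rose and 2 fell, where 15.4% of all tested genes rose and 10.4% fell. Gsk3b, a kinase that marks c-Jun for degradation, averaged 22.3 FPKM in Lck-cre samples and 27.9 FPKM in controls (log2 change -0.31, adjusted p = 0.0201). Ndfip1, an adaptor of the ubiquitin ligase Itch, averaged 39.1 FPKM in Lck-cre samples and 51.7 FPKM in controls (log2 change -0.40, adjusted p = 0.0316). The call of Gsk3b ended on removal of control replicate 2 or 4, or Lck-cre replicate 7 (highest adjusted p 0.0604), and that of Ndfip1 on removal of control replicate 1, 2 or 3, or Lck-cre replicate 5 or 8 (highest adjusted p 0.122) and with coverage over depth (0.158). Without Lck-cre replicate 6, 1 gene rose, beside 2215 of all tested genes.

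Tissue dissociation and sorting can induce immediate early and heat shock genes together, so the heat shock genes are given beside them. Of 13, 9 were tested, 3 rose and 0 fell, where 15.4% of all tested genes rose and 10.4% fell, with a median log2 change of 0.27. Hspe1 and Hspd1, the mitochondrial chaperonins, averaged 58.0 and 79.8 FPKM in Lck-cre samples and 40.5 and 57.6 FPKM in controls (log2 changes 0.53 and 0.47, adjusted p of 0.00750 and 0.0205). Hsp90ab1, named after its values were seen, was the third (log2 change 0.43, limma adjusted p = 0.0483). Its groups overlapped, at 722 to 966 FPKM in Lck-cre samples and 504 to 819 FPKM in controls. The next genes are also named after their values were seen. Hsp90aa1 averaged 166 FPKM in Lck-cre samples and 129 FPKM in controls (log2 change 0.40, limma adjusted p = 0.118). Dnajb1 averaged 72.3 FPKM in Lck-cre samples and 72.1 FPKM in controls (adjusted p = 0.926). Hspa8 and Hsph1 were higher in mean, Dnaja1 and Dnajb4 lower, and none of these passed. Below the filter, Hspa1a averaged 0.367 FPKM in Lck-cre samples and 0.233 FPKM in controls, Hspa1b 0.606 and 0.343 FPKM, and Bag3 1.01 and 0.705 FPKM. In TPM 2 of these genes rose and 1 fell, beside 1300 and 2067 of all tested genes. With control replicate 1 or 2, or Lck-cre replicate 5, removed, 1 gene rose, beside 427, 851 and 419 of all tested genes. The call of Hspd1 ended there (highest adjusted p 0.0906), while Hspe1 was called under every alternative. The part of sample handling in the levels of Jun, Fos and the Ier genes was not tested.

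Summed markers of some other cell types moved with the groups, though not every marker did. Dendritic cell markers summed to 3.23 to 10.2 FPKM in Lck-cre samples and 1.33 to 1.54 FPKM in controls. Cd74, the highest of 6, H2-Aa and Siglech lay above all controls, while Itgax, Flt3 and Zbtb46 overlapped. Natural killer and gamma delta T cell markers summed to 42.3 to 62.8 FPKM in Lck-cre samples and 25.9 to 28.2 FPKM in controls, nearly all of it Trdc, and 2 of 5 were at 0 in all samples of each group. Myeloid markers summed to 10.5 to 14.9 FPKM in Lck-cre samples and 8.44 to 9.05 FPKM in controls, with Cd68 the highest of 6. Cd68, Lyz2 and Csf1r lay above all controls. Itgam, the next highest after Cd68, overlapped, at 2.44 to 3.08 FPKM in Lck-cre samples and 2.48 to 3.17 FPKM in controls. B cell markers summed to at most 0.449 FPKM in Lck-cre samples and 0.477 FPKM in controls, and fibroblast markers to at most 0.154 FPKM in Lck-cre samples and 0.126 FPKM in controls. Whether such cells were present, and their part in the levels of the 10 genes, was not tested.

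Overlapping genes limit a few of the values, since it is not given whether the counting used strand. The files place Junos opposite Jun over 689 bases, at 0.0852 to 0.637 FPKM in Lck-cre samples and 0.253 to 0.451 FPKM in controls. Prdx2 lies opposite Junb over 351 bases, at 108 to 130 FPKM in Lck-cre samples and 90.0 to 117 FPKM in controls. Gm11175 lies opposite Jund over 919 bases, at 0.0625 to 1.93 FPKM in Lck-cre samples and 1.71 to 4.15 FPKM in controls. In control replicate 3 the Junb entry over the bases shared with Prdx2 was at 0 FPKM, so its 52.7 FPKM lay outside them. Elsewhere, reads from these pairs cannot be told apart without strand.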

How the data were processed

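RNA sequencing covered 4 Lck-cre and 4 control samples of sorted DP thymocytes. HISAT and Bowtie2 were used by the authors, per the submitters' processing notes. Their versions and roles, the build, the quantifier and the strandedness were not found in the labels or headers. Per the file headers, the authors gave FPKM and TPM per gene, and the deposited coverage is a mean signal per base with no scaling for depth. Values of entries with the same gene ID were added up.

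The main test was limma 3.58.1 (R 4.3.3) on log2(FPKM + 0.5), applied to the 12337 genes that reached 1 FPKM in 4 or more samples. The model held sex and genotype, with trended empirical Bayes variances (prior degrees of freedom 4.17). Calls are two-sided at a Benjamini-Hochberg adjusted p under 0.05 over all these genes. Each fold is a ratio of mean FPKM, each error of a level an SD, and each 95% confidence interval comes from limma. Single genes were also compared by exact permutation of mean FPKM, two-sided, over 70 assignments. The fit was tested on simulated data. Python 3.11.15 with SciPy 1.17.1, NumPy 2.4.6 and pandas 2.3.3 made the summaries.

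The 10 genes and the other lists were chosen with earlier results of these data known. All 10 genes are named, as are, from each list, up to 2 called genes that rose and 2 that fell with the smallest adjusted p, and the 3 genes nearest in profile to Junb, Ier2, Jun and Fos. Of the other AP-1 partners, 1 gene the rule names is not reported here. Promoters came from RefSeq (GRCm38.p6) and transcripts from GENCODE vM21, to which 81.0% of tested genes matched by ID. The alternatives changed the scale (TPM, median-of-ratios, quantile), the pseudocount (0.1, 1), the filter (none, or mean FPKM), the sex term, the samples (males alone, or 1 sample removed) or the threshold (0.01). Coverage divided by depth, and the counts of the other lists under each alternative, were added after the data were seen.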

Additional observations from a re-analysis of the deposited data

Results flagged for a closer look

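Among the genes named here, 67 groups of 4 samples were checked for a sample that stood apart from the other 3 by Dixon's 95% critical value for the gap over the range, and 2 were found, where chance gives about 1 in 20. Atf3 was listed at 0.0129 FPKM in Lck-cre replicate 6 and at 0 in the other 3 Lck-cre samples. Map3k1 lay at 21.4 FPKM in Lck-cre replicate 5 and at 19.7 to 19.8 FPKM in the other 3 Lck-cre samples. Jun in control replicate 4, at 43.2 FPKM, had a gap of 0.822 of the control range and stayed just under the critical value.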

How the results depend on the processing

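No paired analysis was possible because the groups share no replicate numbers. Of all genes, 3180 were called, against 1056 with no filter, 652 in males only, 512 at an adjusted p under 0.01 and 647 to 3889 when single samples were left out: 653 without control replicate 1, 1256 without control replicate 2, 2111 without control replicate 4, 647 without Lck-cre replicate 5, 1802 without Lck-cre replicate 7 and 2079 without Lck-cre replicate 8. Of the calls, 59.8% rose in FPKM and 38.6% in TPM, in which the median log2 change of all genes was -0.06, beside 0.01 in FPKM. The number of the 10 genes that rose was 6 under the scalings, pseudocounts and mean filter and without the sex term, 4 with no filter, 5 in males only and at an adjusted p under 0.01, and 5 to 7 when single samples were left out. In 0 of the 19 alternatives did any of the 8 tested genes fall or change direction, and Fosl2 and Atf3 were not followed there. The 6 that did not overlap between groups in FPKM numbered 6 in TPM and under median-of-ratios scaling, which each multiply all genes of a sample by 1 factor. Ier3, among the 6, entered the test through the Lck-cre samples alone, so its lack of overlap is no separate support. With 1 female left out the other adds nothing beside the sex term, so those settings, like males only, compare 3 males with 3. The filters, the sex term and the 0.01 threshold do not move a log2 change. The 19 alternatives are therefore not 19 separate checks of direction. Of the changes of other named genes under the alternatives, 232 kept direction and call, 91 kept their direction but did not pass and 0 reversed; for the losses the cause was not tested. With no filter, 4 of the other immediate early genes rose and 0 fell, and 0 of the factors of immediate early promoters fell. Of all 28851 genes in that setting 696 rose and 360 fell. Depth is unknown, so the precision of low genes such as Ier3 cannot be given.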
